A study of Mus musculus with 2 samples.

Results

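OFF cone bipolar cells of the mouse retina were taken from 2 single-cell RNA sequencing libraries, 1 from wild-type and 1 from diabetic db/db mice. They were chosen by measured values, as cells with at least 4 unique molecular identifiers (UMIs, counted transcript molecules) summed over Grik1, Gsg1, Slitrk6, Tacr3, Neto1 and Otor, at most 2 UMIs over the ON bipolar genes Trpm1, Isl1 and Grm6, and under 0.5% of UMIs from 6 cone genes. The rule found 121 of 10230 kept cells in the wild-type library and 116 of 10963 in the db/db library. The levels of the rule genes in these cells are therefore descriptions of the choice.

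Bipolar cells carry signals from photoreceptors to the inner retina. OFF cone bipolar cells are depolarized by the glutamate that cones release in darkness, through ionotropic kainate and AMPA receptors, whereas ON bipolar cells sense the same transmitter through the metabotropic receptor mGluR6 (Grm6), which closes the TRPM1 channel in darkness. The OFF cone bipolar cells of the mouse are divided into types 1, 2, 3A, 3B and 4, which end in the outer layers of the inner plexiform layer and differ in the genes they express.

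Both libraries came from mice of 13 weeks on the C57BLKS background that had received no treatment. The control mice had 2 intact copies of the leptin receptor gene (Lepr wt/wt, also given as m/m), and the other mice were homozygous for the db mutation of Lepr, a germline model of obesity and diabetes. Retinas of both eyes of 2 mice were pooled for each library and dissociated with enzymes, and libraries were made with 10x 3' v3.1 chemistry, which reads transcript ends. Since each genotype had 1 library, the genotypes were compared without a test. Ratios are db/db to wild type, and the 95% intervals beside them reflect counting error alone, not the spread between mice or dissociations.

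The OFF cone bipolar cells held 430078 (wild type) and 414696 (db/db) UMIs, with medians of 2859 and 2944.5 UMIs per cell. Mitochondrial genes took a median of 4.39% and 5.30% of their UMIs, and rod genes took 1.94% in each library. None of the 26 barcodes shared by the libraries was an OFF cone bipolar cell. Some cells chosen by the rule also carried genes of another cell type. In the wild-type library 7 cells held at least 10 UMIs of such genes, 5 of them of Muller glia genes, 1 of amacrine genes and 1 of retinal pigment epithelium genes, against 3 in the db/db library, all with Muller glia genes. These mixed cells were deep, with 5330 to 16476 and 9719 to 11150 UMIs, and held 17.4% and 7.57% of all UMIs of the chosen cells. All but 1 of them also had UMIs of the bipolar genes Cabp5, Scgn or Lhx4. Whether they were doublets was not tested. Named results that move with them are given with and without them, and most other comparisons between the libraries below use the remaining 114 cells of the wild-type and 113 of the db/db library.

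The chosen cells carried the genes of bipolar neurons. A list of 8 bipolar genes summed to 3302 CPM (UMIs per 1000000) in wild-type OFF cells and 3424 CPM in db/db OFF cells, and 103 and 107 cells had at least 3 UMIs of it. Genes of rod bipolar cells, an ON type, summed to 130 and 72.3 CPM, against 1586 and 1542 CPM in ON bipolar cells. Outside the mixed cells, wild type given first, amacrine genes had 12 and 9 UMIs, pigment epithelium genes 3 and 1 and vascular genes 9 and 9. Mixed cells were defined by the amacrine and pigment epithelium lists among others, so those low counts were partly fixed in advance. The 8 Muller glia genes had 210 and 346 UMIs (591 and 903 CPM). They stood at 617 and 471 CPM in ON cells without mixed cells, and at 153 and 122 CPM in rods. The 3 of them measured between the libraries in these OFF cells were higher in db/db beyond counting error, with a median log2 ratio of 0.79. With mixed cells, some of which are defined by these glia genes, the Muller glia genes had 1072 and 928 UMIs in OFF cells.

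Grik1 (ENSMUSG00000022935; GRCm38 chromosome 16, 87895900 to 88290265, minus strand), which encodes the kainate receptor subunit GluK1, led the choice in both libraries. It had 531 UMIs in 105 wild-type cells (1235 CPM) and 697 UMIs in 109 db/db cells (1681 CPM). Gsg1 (ENSMUSG00000030206; chromosome 6, 135237326 to 135254351, minus strand) had 507 and 528 UMIs, and 88 wild-type and 104 db/db cells had UMIs of both genes. Slitrk6 (ENSMUSG00000045871; chromosome 14, 110748580 to 110755149, minus strand), a transmembrane protein of the synaptic adhesion family, had 209 and 339 UMIs, and Otor (ENSMUSG00000027416; chromosome 2, 143078473 to 143081713, plus strand) 115 and 173. Tacr3 (ENSMUSG00000028172; chromosome 3, 134829007 to 134934579, plus strand), the neurokinin receptor NK3, was rare, with 32 UMIs in 6 wild-type cells and 2 UMIs in 1 db/db cell. Neto1, an auxiliary subunit of kainate receptors, had 30 UMIs in 6 cells and 3 UMIs in 2 cells. Rods, used as a measure of free RNA, had no UMI of any rule gene, although the absence of these UMIs was part of how they were chosen.

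Cells lay on both sides of each limit. An OFF sum of 4 was reached by 15 wild-type and 4 db/db cells, and 15 and 6 cells had an OFF sum of 3. The ON limit removed more cells. Among cells that met the OFF minimum, 46 wild-type and 15 db/db cells had more than 2 ON UMIs, and in 35 and 9 of them the ON sum was still below the OFF sum. Those 35 and 9 cells held 48 and 6 UMIs of Tacr3, 122 and 37 of Neto1, and 148 and 40 of Trpm1, so that most of the Tacr3 and Neto1 UMIs lay outside the rule. A wider choice, made after seeing these values, therefore took every cell whose OFF sum was at least 4 and above its ON sum. Without mixed cells it held 146 wild-type and 122 db/db cells.

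OFF cone bipolar cells made up similar shares of both libraries, while the share of ON bipolar cells was lower in the db/db library. OFF cone bipolar cells were 1.18% of kept cells in the wild-type library (exact interval 0.982 to 1.41) and 1.06% in the db/db library (0.875 to 1.27), a ratio of 0.895 (0.687 to 1.16). ON bipolar cells, chosen by the mirrored rule, were 353 cells or 3.45% and 252 cells or 2.30%, a ratio of 0.666 (0.564 to 0.785). The ratio of OFF to ON cell number was 1.34 times higher in the db/db library, with an interval of 0.982 to 1.84 that held 1. Thinning to 1000 UMIs left out cells with fewer, and 8338 wild-type and 9574 db/db kept cells remained. Among them were 71 OFF and 170 ON wild-type cells and 79 OFF and 105 ON db/db cells. The ratio of OFF to ON cell number was then 1.80 times higher in the db/db library (1.18 to 2.75). With the wider choice and no mixed cells it was 1.15 times higher (0.854 to 1.56). With the wider choice, mixed cells included, OFF cone bipolar cells were 156 and 125 cells, or 1.52% and 1.14%, a ratio of 0.748 (0.586 to 0.952). The comparison thus depended on depth and on where cells with both OFF and ON transcripts were counted.

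OFF cone bipolar cells differed from ON bipolar cells by many genes. The sets were chosen by opposed marker genes, so these contrasts describe them. The ON set joined rod bipolar and ON cone bipolar cells. In it 180 wild-type and 125 db/db cells had no UMI of the rod bipolar genes Prkca, Sebox or Car8. Against these cells alone, 17 wild-type and 15 db/db ratios of named genes moved by more than counting error, and 28 in each library did not. Of 7927 measured genes, 183 (2.31%) were at least 2-fold higher in OFF than in ON bipolar cells beyond counting error in both libraries, and 204 (2.57%) were at least 2-fold lower.

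Genes of cell contact were among the leading OFF genes outside the rule. Cntnap5a, a contactin-associated adhesion protein, had 115 UMIs in OFF cells of the wild-type library and 113 in those of the db/db library, against 3 and 0 in the more numerous ON cells. Lrrtm3, a postsynaptic organizer, had 86 and 103 UMIs against 0 and 4, and the endothelial-type adhesion molecule Esam had 65 and 36 against 1 and 1. Of 50 measured genes for synaptic adhesion and guidance, 16 were at least 2-fold higher and 11 at least 2-fold lower in OFF cells of both libraries. The Notch ligand Dner followed the same pattern, with 46 and 56 UMIs in OFF cells against 3 and 2 in ON cells.

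Ion channel subunits and signalling genes also set OFF cells apart. Cacna2d2, an auxiliary subunit of voltage-gated calcium channels, stood at 323 CPM in wild-type and 620 CPM in db/db OFF cells, and at 23.4 and 38.6 CPM in ON cells. Kcnip4, a partner of A-type potassium channels, stood at 200.0 and 359 CPM against 10.4 and 12.6 CPM. Of 23 measured voltage-gated channel genes, 9 were at least 2-fold higher in OFF cells of both libraries and 3 were at least 2-fold lower. The secreted protein Tafa3 was 18.4-fold and 20.1-fold higher in OFF cells, the monocarboxylate transporter Slc16a7 17.7-fold and 27.9-fold, and the glycogen phosphorylase Pygl 31.1-fold and 63.7-fold.

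Ionotropic glutamate receptor genes lay on both sides, and genes of the mGluR6 cascade were nearly all lower in OFF cells. Of 12 measured ionotropic receptor genes, 3 were at least 2-fold higher in OFF cells of both libraries, namely Grik1, a rule gene, the AMPA subunit Gria4 and Cacng2, the AMPA receptor partner stargazin. Cacng2 had 32 UMIs in each set of OFF cells against 3 in each set of ON cells, with log2 ratios of 5.26 (3.58 to 7.61) for wild type and 4.74 (3.06 to 7.09) for db/db. Gria4 had 19 and 23 UMIs in OFF cells, with log2 ratios of 1.63 and 2.04. Grin3a, an NMDA receptor subunit, had 1 UMI in OFF cells of each library against 40 and 33 in ON cells. In the mGluR6 and TRPM1 cascade, which includes the rule genes Grm6 and Trpm1, 13 of 15 measured genes were lower in OFF cells of both libraries and 11 were at least 2-fold lower. Outside the rule genes, Gpr179, which anchors the cascade's regulators, had log2 ratios of -3.55 for wild type and -4.59 for db/db. Pcp2, a modulator of the Go protein, had -2.54 and -3.40, and Rgs11, which speeds the shut-off of Go, had -1.56 and -1.75.

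**Figure D1:**
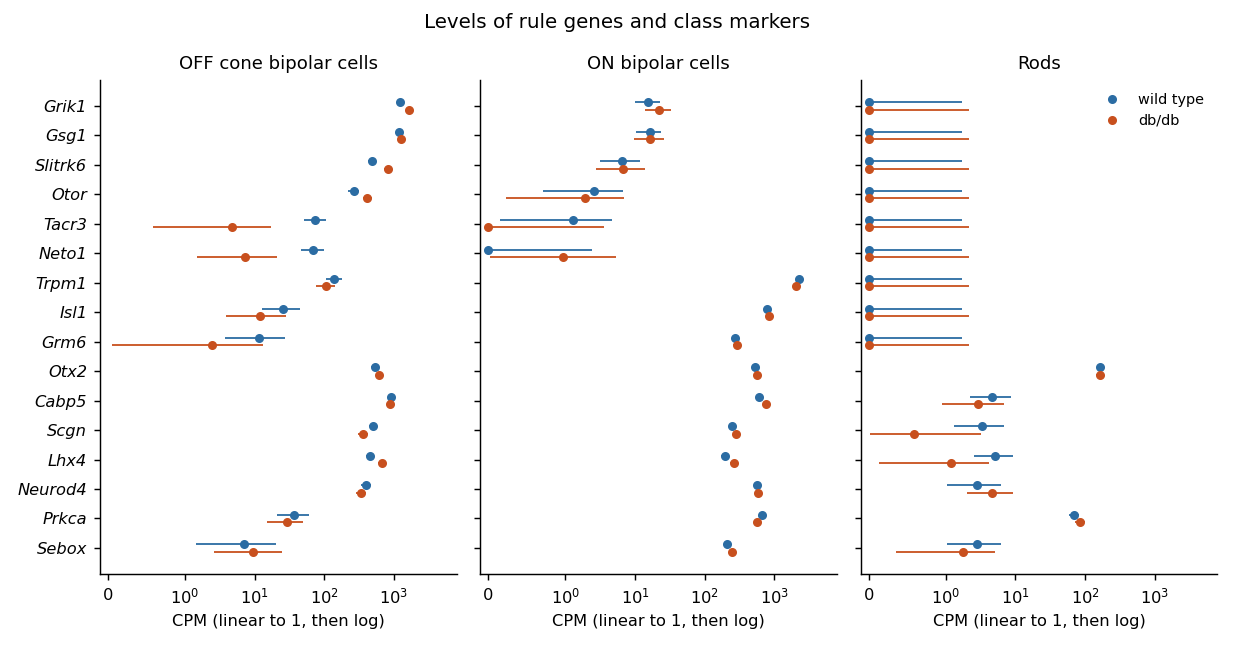
Level in CPM (axis logarithmic above 1 and linear below) of 16 genes in OFF cone bipolar cells, ON bipolar cells and rods of each library, with lines for 95% Poisson intervals. Grik1, at 1235 and 1681 CPM in OFF cells, stands at 15.6 and 22.2 CPM in ON cells, and Prkca, at 37.2 and 28.9 CPM in OFF cells, at 670 and 575 CPM in ON cells.

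On the ON side the leading genes were those of rod bipolar and ON cone types. Cck had no UMI in OFF cells and 286 and 225 in ON cells, so that it was at least 26.6-fold and 30.03-fold lower in OFF cells. Reln, a secreted matrix protein, had 2 and 0 UMIs against 294 and 174. The rod bipolar genes Prkca (log2 ratio -4.17 and -4.31) and Sebox (-4.91 and -4.71) and the metabotropic receptor Grm5 (-4.43 and -5.12) were lower too. Fn1, Slco5a1 and Cnmd had no UMI in OFF cells of either library, against 73 to 143 UMIs in ON cells.

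**Figure D2:**
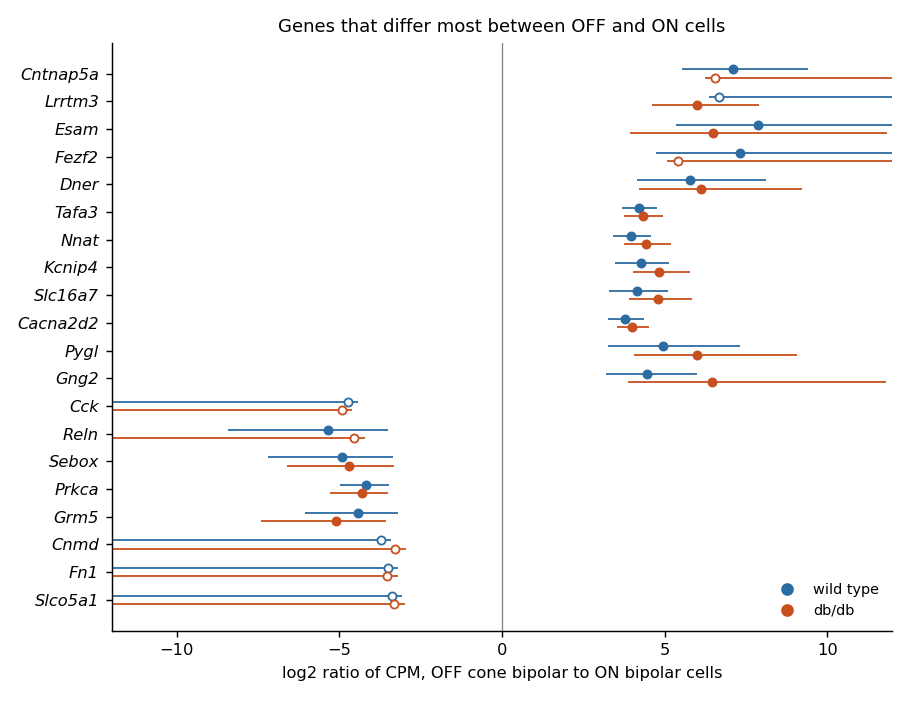
Log2 ratio of OFF to ON bipolar cells in each library, for the 20 genes outside the rule with the clearest ratios. Colours mark the wild-type and the db/db library, and lines give the intervals for counting error. Open symbols mark a gene with 0 UMIs in 1 cell group, set to 3. The genes lie on the same side of 0 in both libraries, Esam at 7.86 and 6.49 and Sebox at -4.91 and -4.71.

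Shared features of both bipolar groups were smaller in size. Of 28 measured genes of the ribbon synapse and transmitter release, none was past 2-fold between OFF and ON cells in both libraries. All 13 mitochondrially encoded respiratory genes were measured, and 12 of them were lower in OFF cells of both libraries, with median log2 ratios of -0.23 and -0.29 beside 0.01 and 0.02 for all measured genes. OFF cells also had fewer UMIs than ON cells, whose medians were 3789 and 3651.5, and ON cells had higher mitochondrial shares, with medians of 5.63% and 6.95%. The part of these measures in the respiratory gene ratios was not tested.

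Cells with genes of type 3B made up a higher share of the OFF cells in the db/db library, and cells with genes of types 1 and 2 a lower share. A cell was counted for a type with at least 2 UMIs of that type's list, and none of 543 wild-type and 580 db/db rods reached this for any list, which, at 3 counts of the total, allows shares of up to 0.552% and 0.517%. For types 1 and 2 this absence was partly fixed, since rods were chosen without Tacr3 and Neto1 UMIs. The 3B list (Nnat, a small membrane proteolipid, and Prkar2b, a protein kinase A subunit) marked 39 of 114 wild-type cells, or 34.2% (25.6 to 43.7), and 58 of 113 db/db cells, or 51.3% (41.7 to 60.8). The list for types 1 and 2 (Tacr3, Neto1, Pcdh17, Pcdh10, Lhx3, Chrm2, Syt2, Ebf1 and Bhlhe22) marked 16.7% (10.3 to 24.8) and 11.5% (6.27 to 18.9). The 3A list (Erbb4 and Hcn4) marked 13.2% and 7.96%, and the type 4 list (Col11a1, Kcnip3 and Fezf2) 10.5% and 10.6%. The intervals overlapped for each of these lists. Before mixed cells were left out and after thinning to 1000 UMIs, 9 of 111 and 18 of 114 cells were counted for 3B. Among ON bipolar cells, mixed cells included, the list for types 1 and 2 marked 31 of 353 wild-type (8.78%) and 20 of 252 db/db cells (7.94%). The 3B list marked 2.27% and 1.98% of these ON cells, the 3A list 0.85% and 0.40%, and the type 4 list none.

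The wider choice changed the count for types 1 and 2. It marked 43 of 146 wild-type cells, or 29.5% (22.2 to 37.6), and 19 of 122 db/db cells, or 15.6% (9.64 to 23.2). Without Tacr3 and Neto1 in the list, which also belong to the rule, the counts were 43 and 18, among cells still chosen with both genes. The 3B list marked 29.5% and 47.5% (38.4 to 56.8) in this choice, the 3A list 13.7% and 9.02%, and the type 4 list 10.3% and 9.84%. The intervals of the libraries did not overlap for 3B and overlapped for types 1 and 2. Of the wild-type cells marked for types 1 and 2, 24 of 43 had more than 2 ON UMIs, against 6 of 19 in the db/db library. Shares within one library are tied to each other, and with 1 library per genotype a difference in recovery of types between dissociations cannot be told apart from a difference between genotypes.

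**Figure D3:**
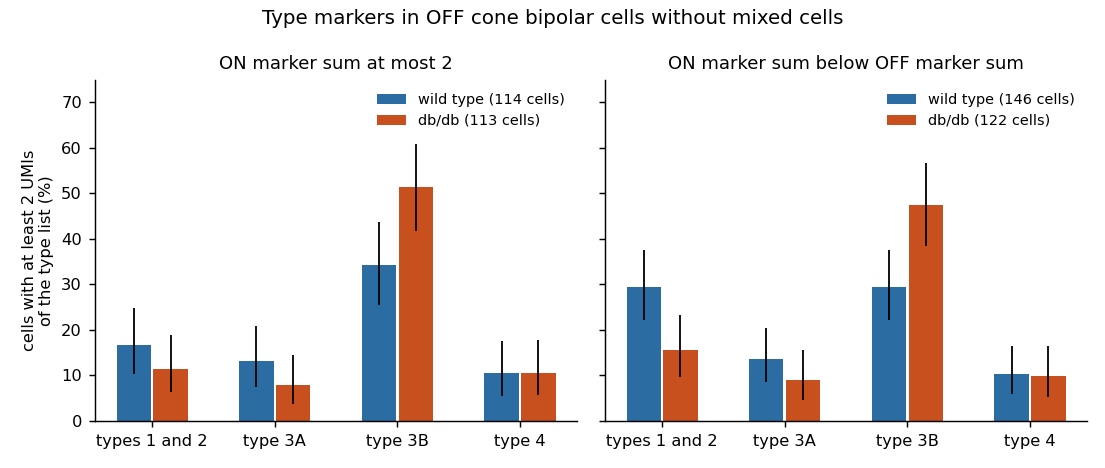
Percent of OFF cone bipolar cells, mixed cells left out, with at least 2 UMIs of each type list, under the ON limit of 2 UMIs and under the wider choice, with lines for exact 95% intervals. Under the wider choice types 1 and 2 stand at 29.5% (wild type) and 15.6% (db/db), and 3B at 29.5% and 47.5%.

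Cells marked by different lists also differed in bipolar genes that neither the rule nor the lists used. The calcium-binding protein genes Cabp5 and Scgn stood at 1695 and 1059 CPM in the 10 wild-type cells positive for 3A alone, and at 833 and 260 CPM in the 34 positive for 3B alone. In the db/db library Cabp5 and Scgn stood at 1990 and 1095 CPM in 5 cells positive for 3A alone, and at 1122 and 326 CPM in 50 positive for 3B alone. Most cells were positive for 1 list or none: 42 and 35 cells had none, 60 and 65 had 1, and 11 and 13 had 2 lists. Cells with none are not assigned to any type, since 1 or 0 UMIs of a short list says little at this depth.

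Most genes of the list for types 1 and 2 were lower in the db/db library. Tacr3, without mixed cells, had 20 UMIs in 5 wild-type cells and 2 UMIs in 1 db/db cell under the ON limit, and 67 UMIs in 22 cells and 8 UMIs in 4 cells in the wider choice, where its log2 ratio was -2.84 (-4.11 to -1.78). Neto1 in the wider choice had 148 UMIs in 25 cells and 40 UMIs in 7 cells, a log2 ratio of -1.66. The transcription factor Ebf1 had 126 UMIs in 24 cells and 26 UMIs in 5 cells, -2.05 (-2.72 to -1.43), and under the ON limit it had 29 UMIs in 5 wild-type cells and none in db/db cells. Over all kept cells of any class, Tacr3 had 101 UMIs in 39 wild-type cells and 8 UMIs in 4 db/db cells.

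Of the other members of the list, 2 were not lower. In the wider choice the muscarinic receptor Chrm2 had 45 and 12 UMIs, the vesicle calcium sensor Syt2 42 and 11, and the LIM-homeodomain factor Lhx3 22 and 8, with log2 ratios of -1.68, -1.70 and -1.23. The transcription factor Bhlhe22 was lower too, with 29 and 14 UMIs, but did not count as past 2-fold. The protocadherin Pcdh17 had 38 and 33 UMIs and a ratio of 0.03 (-0.69 to 0.74), and its relative Pcdh10 14 and 17 UMIs, 0.51. Tacr3 and Neto1 belong to the rule, so their values are descriptions. Of the other 7 list members, all measured there, 5 were lower and 4 of these at least 2-fold lower, with a median of -1.23. The cells were still chosen by an OFF sum that includes Tacr3 and Neto1. Genes carried by the same cells are therefore not independent of the choice. In that choice 106 of all 5651 measured genes (1.88%) were at least 2-fold lower beyond counting error, with a median of 0.00 over all. Under the ON limit Pcdh17 and Neto1 alone were measured.

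Genes of types 3A, 3B and 4 lay on both sides of 0. Erbb4, a neuregulin receptor of the 3A list, had 38 UMIs in 19 wild-type cells and 14 UMIs in 8 db/db cells without mixed cells, a log2 ratio of -1.55 (-2.55 to -0.63). The pacemaker channel Hcn4 of the same list had 28 and 18 UMIs, -0.75 (-1.69 to 0.16). Prkar2b of the 3B list had 18 UMIs in 15 cells and 46 UMIs in 33 cells, 1.24 (0.43 to 2.12), and Nnat had 134 and 171 UMIs, 0.24 (-0.09 to 0.58). Fezf2, a transcription factor and the only measured gene of the type 4 list, had 39 and 49 UMIs, 0.22 (-0.42 to 0.86). In the wider choice 15 of its 40 wild-type UMIs and 28 of its 49 db/db UMIs lay in cells marked for 3B. Its ratio is therefore not one of type 4 cells alone.

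**Figure D4:**
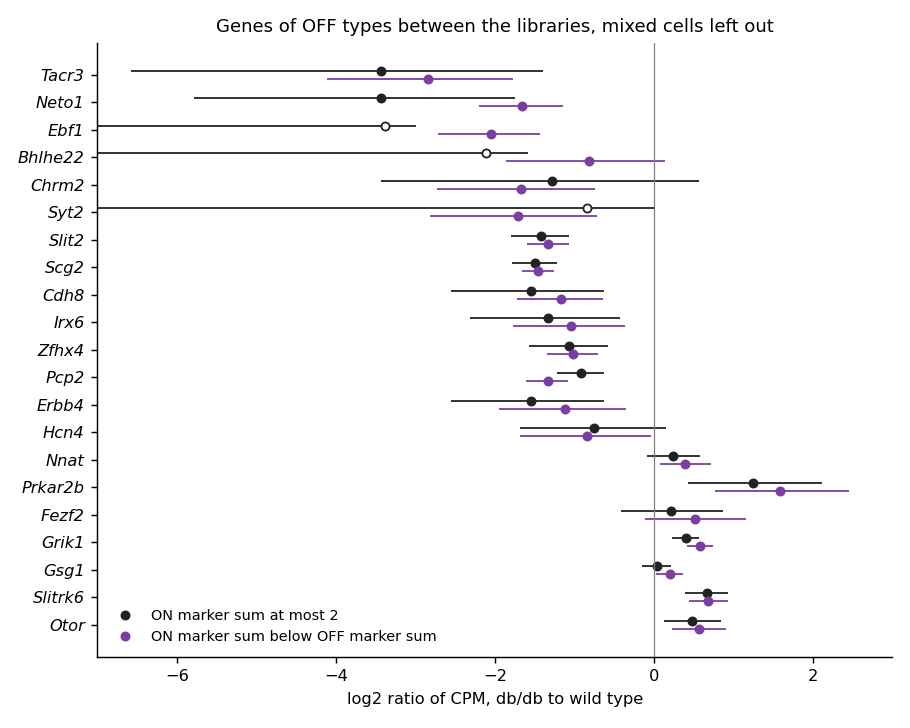
Log2 ratio of db/db to wild type for 21 genes of OFF bipolar types without mixed cells, black for an ON sum of at most 2 and purple for an ON sum below the OFF sum, with lines for 95% intervals and open symbols for genes with 0 UMIs in 1 library. Tacr3 stands at -3.43 and -2.84, and Nnat at 0.24 and 0.40.

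Across all measured genes few passed 2-fold between the libraries. With all chosen cells, 68 of 5407 measured genes (1.26%) were at least 2-fold higher and 110 (2.03%) at least 2-fold lower in the db/db library beyond counting error. Without mixed cells these were 54 (1.12%) and 65 (1.34%) of 4838, of which 2395 were above and 2443 below 0, with a median of 0.00. In ON bipolar cells 191 of 9046 genes (2.11%) passed in either direction.

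The ranked list of all chosen cells was led on its lower side by genes of other cell types. Ttr, a pigment epithelium gene, had 132 UMIs in wild-type cells, 130 of them in 1 cell, and none in db/db cells. The amacrine genes Gad1 (36 UMIs), Gad2 (31) and Tfap2b (32) had no UMI in db/db cells, and 36, 30 and 31 of these UMIs lay in 1 wild-type cell. Atf3, a stress-induced factor, had 119 and 10 UMIs, 71 of the former in 1 cell, and without mixed cells 10 and 10. Timp3 had 98 and 8 UMIs, and 1 and 4 without mixed cells, and Atp1b1 had 30 and 2, and 0 and 2 without them. Of the 8 lowest genes, Tacr3 alone still had a ratio past 2-fold lower without mixed cells, at a log2 ratio of -3.43 (-6.57 to -1.39). Its 20 and 2 UMIs there were under the minimum of 30, so it did not count as measured. As a rule gene, its value is also a description.

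Several genes carried mainly by cells not marked for 3B were lower in db/db OFF cells, and are named here after their values were seen. Scg2, a secretory granule protein (ENSMUSG00000050711; chromosome 1, 79434669 to 79440120, minus strand), had 372 UMIs in 44 wild-type cells and 142 UMIs in 24 db/db cells, a log2 ratio of -1.50 (-1.79 to -1.22). In ON cells it had 1402 and 1016 UMIs, a ratio of 0.05, and the difference of -1.55 between OFF and ON cells lay beyond counting error (-1.86 to -1.24). The axon guidance ligand Slit2 (ENSMUSG00000031558; chromosome 5, 47983138 to 48307733, plus strand) had 219 UMIs in 27 cells and 88 in 11 cells, -1.43 (-1.80 to -1.06). The cadherin Cdh8 had a log2 ratio of -1.55, and the transcription factors Irx6 and Zfhx4 had -1.33 and -1.07. With mixed cells included the ratios were -1.34 for Scg2, -1.38 for Slit2, -1.39 for Cdh8, -1.33 for Irx6 and -1.16 for Zfhx4.

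These genes were carried by a subset of OFF cells. The wider choice without mixed cells was split into 43 wild-type and 19 db/db cells marked for types 1 and 2, 39 and 56 marked for 3B and not for types 1 and 2, and 64 and 47 marked for neither. Slit2 had 303 UMIs in 31 wild-type cells of the first subset, 1 UMI in the second and 172 UMIs in 20 cells of the third. Within the cells marked for types 1 and 2 the log2 ratio of Slit2 was -0.72 (-1.08 to -0.37), and in the cells marked for neither list -0.90 (-1.31 to -0.50), against -1.33 over the whole wider choice. Scg2 gave -0.89 (-1.14 to -0.64) and -0.76 (-1.11 to -0.42) there against -1.46 in all, and -2.26 (-3.60 to -1.09) from 29 and 8 UMIs in the cells marked for 3B. Cdh8 gave -0.64 and -0.07 against -1.17, Zfhx4 -0.39 and -0.58 against -1.02, and Irx6 -0.08 and -1.09 against -1.05. In the cells marked for types 1 and 2 each of these 5 ratios was thus nearer 0 than over the whole wider choice, while those of the other subsets lay on both sides of that value. Cells marked for types 1 and 2 did not carry the same list genes in both libraries. Under the ON limit, 11 wild-type cells positive for this list alone had 29 UMIs of Neto1, 21 of Ebf1 and 15 of Pcdh17. The 8 such db/db cells had 0, 0 and 23. The part of this makeup in the ratios within the subset was not tested. UMIs of 1 cell are not independent of each other, so intervals of genes concentrated in few cells are too narrow.

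Immediate early genes, which are switched on by activity and by handling of tissue, depended on the mixed cells. With all chosen cells 14 of 15 measured genes were lower and 9 at least 2-fold lower, with a median log2 ratio of -1.15, beside 2714 of all 5407 genes lower. Without mixed cells 10 genes were measured, of which 6 were lower and 4 at least 2-fold lower, with a median of -0.66, and 2443 of all 4838 genes were lower. Fos had 614 and 279 UMIs with mixed cells (-1.09) and 91 UMIs in 45 cells and 45 in 20 cells without them, -1.13 (-1.68 to -0.59). Fosb had 175 UMIs in 28 cells and 87 in 3 cells with mixed cells (-0.96), and 35 UMIs in 23 cells and 1 UMI in 1 cell without them, -5.24 (-10.58 to -2.67). Egr1 had 278 and 107 UMIs (-1.32), and 49 UMIs in 24 cells and 15 in 12 cells without mixed cells, -1.82 (-2.76 to -0.96). Ier2 stood at -2.22 with and -1.06 without mixed cells, and Jun at -1.15 with and 0.05 without them.

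In ON cells all 16 measured early genes were lower with mixed cells, with a median of -1.04, and 11 of 14 without them, with a median of -0.55. Without mixed cells Fosb had 70 and 11 UMIs in ON cells and Fos a ratio of -0.85. Egr1 in ON cells had 596 and 383 UMIs with mixed cells, a ratio of -0.06, and 319 and 335 without them, 0.58. Its OFF minus ON difference was -1.26 (-1.65 to -0.88) with and -2.40 (-3.37 to -1.51) without mixed cells. In the 3 subsets of the wider choice, Fosb had 22, 22 and 15 UMIs in wild-type and 3, 1 and 0 in db/db cells, and Fos gave -0.80, -1.40 and -2.16 in the cells marked for types 1 and 2, for 3B and for neither. Both mice of a genotype were dissociated into 1 library, so that dissociation and genotype cannot be told apart for these genes.

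Most of the genes named as higher in db/db OFF cells were of low abundance. Bmpr1a, a receptor for bone morphogenetic proteins (ENSMUSG00000021796; chromosome 14, 34410734 to 34503341, minus strand), had 8 UMIs in 7 wild-type cells and 35 UMIs in 25 db/db cells without mixed cells, a log2 ratio of 2.02 (0.89 to 3.34). In ON cells it had 114 and 60 UMIs, and the difference between the groups was 2.43 (1.17 to 3.83). Eri3 had 5 and 25 UMIs, the zinc transporter Slc39a10 5 and 24, the ubiquitin ligase adaptor Spopl 6 and 25, the endocannabinoid-synthesizing lipase Dagla 7 and 26, and the BCL2 family member Bok 10 and 34, with ratios of 1.66 to 2.21. AC149090.1 had 68 UMIs in 55 cells and 165 in 77 cells, 1.17 (0.75 to 1.60), and it was also higher in ON cells, by 1.37.

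Cacna2d2 lay below 2-fold without mixed cells (ENSMUSG00000010066; chromosome 9, 107399612 to 107529343, plus strand). Without mixed cells it had 126 UMIs in 63 wild-type cells and 237 UMIs in 87 db/db cells, a log2 ratio of 0.80 (0.48 to 1.13). In cells marked for 3B it stood at 416 CPM and 833 CPM, with an interval of the log2 ratio of 0.58 to 1.44. Its ratio was 1.46 (0.15 to 2.81) in cells marked for types 1 and 2, from 10 and 13 UMIs, and 0.18 (-0.36 to 0.71) in cells marked for neither. Other OFF genes lay below 2-fold too: Kcnip4 had a ratio of 0.77, Slc16a7 0.76, the transcription factor Nfib 0.64 and the neurexophilin Nxph3 0.81, and the interval of Nxph3 held 0. In 3B-marked cells Kcnip4, Slc16a7 and Nfib had ratios of 0.33, 0.39 and 0.32, with intervals that held 0. In cells marked for neither list these 3 genes had 1.23 (0.45 to 2.04), 1.30 (0.49 to 2.15) and 1.10 (0.51 to 1.70), and Nfib had 1.73 (0.70 to 2.81) in those marked for types 1 and 2.

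**Figure D5:**
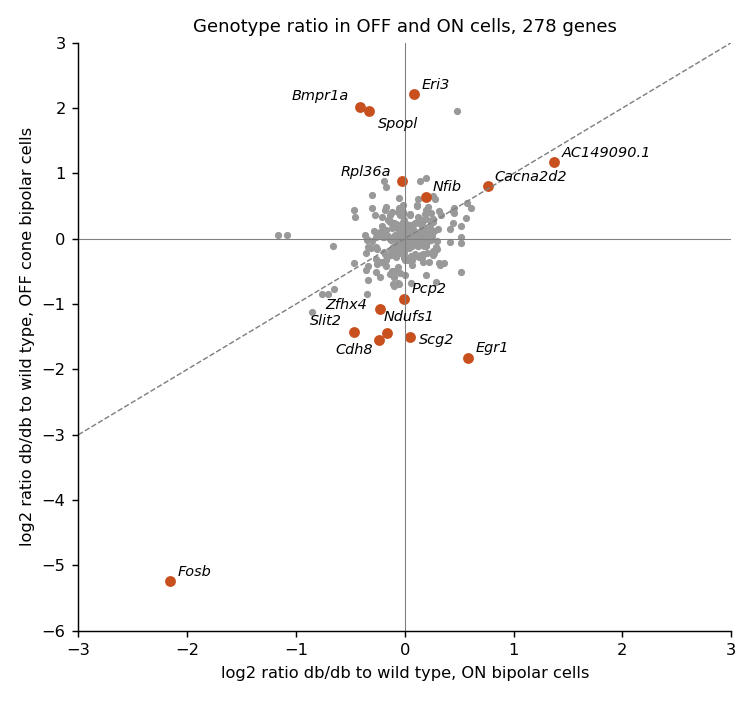
Log2 ratio of db/db to wild type in OFF cone bipolar cells against that in ON bipolar cells, mixed cells left out, for genes of the described lists. Bmpr1a lies at 2.02 in OFF and -0.41 in ON cells, and Scg2 at -1.50 and 0.05.

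Few receptors and channels of the OFF pathway passed 2-fold between the libraries. Of 8 measured ionotropic glutamate receptor genes, Neto1 alone passed 2-fold. Grik1, a rule gene, had 480 and 683 UMIs without mixed cells. The AMPA subunit Gria1 had 32 and 64 UMIs and a ratio of 0.89 (0.26 to 1.55), and Gria2 338 and 312 UMIs, -0.23 (-0.45 to 0.00). The 10 measured GABA and glycine receptor genes had a median of 0.21 with 8 higher, none past 2-fold, and ON cells had a median of 0.24 with 12 of 13 higher. The GABA-C subunits Gabrr1, Gabrr2 and Gabrr3 had ratios of 0.39, 0.43 and 0.65, of which Gabrr3 left 0 (0.18 to 1.13). None of 19 voltage-gated channel genes and none of 25 ribbon synapse genes passed 2-fold without mixed cells, with medians of 0.12 and 0.07. In these 2 lists 3 and 4 genes were higher and 1 and 2 lower beyond counting error. Of all 4838 measured genes, 197 were higher and 192 lower beyond it.

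Metabolic and stress lists were close to 0. Of 13 mitochondrially encoded respiratory genes 8 were higher, with a median log2 ratio of 0.20 and mt-Co1 at 0.43 and mt-Co3 at 0.33. The corresponding median in ON cells was 0.21, and the mitochondrial share of UMIs was itself higher in db/db cells of both groups, as given above. The 72 nuclear respiratory genes had a median of -0.02, in which Ndufs1, a complex I subunit, with 43 and 17 UMIs (-1.45, -2.35 to -0.61), alone passed 2-fold. Glycolysis genes had a median of 0.06 with 17 of 23 higher, heat shock chaperones -0.15 with 6 of 9 lower, and genes of the unfolded protein response -0.11 with 9 of 15 lower. None of these 3 lists had a gene past 2-fold. Genes of insulin, insulin-like growth factor and leptin signalling had a median of 0.03 over 10 measured genes, none past 2-fold, and Lepr had no UMI in the OFF cells of either library.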

How the data were processed

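Retinal cells of 2 libraries, 1 per genotype, were analysed as raw UMI counts per gene and cell barcode, deposited by the authors as 10x matrices. They were made with cellranger 6.0.1 per the file headers, and the submitters' processing notes name Cell Ranger and mm10. The annotation release, cell calling and use of strand are not given in the sources used here. Cells with at least 200 genes and at most 20% mitochondrial UMIs were kept, which left 35524110 and 33545662 UMIs. No doublet caller was run and doublets were not removed. Mixed cells are those with at least 10 UMIs of Slc1a3, Aqp4, Gpr37 and Dkk3 together, or of the amacrine, pigment epithelium or microglia list.

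Counts were summed over the cells of a group in each library and scaled to 1000000 (CPM). A ratio has an exact conditional binomial interval, a difference of ratios an exact conditional odds ratio interval, a share an exact Clopper-Pearson interval and a level an exact Poisson interval, all at 95%, covering counting error only and not adjusted over genes. Intervals are too narrow where few cells carry a gene's UMIs. A gene was measured with at least 30 UMIs over both libraries, or 60 over both cell groups as well, and was counted as past 2-fold when its interval also left 0. A count of 0 was set to 3 in a ratio. ON bipolar cells had at least 4 ON and at most 2 OFF UMIs under the same cone limit. Rods had at least 5% of UMIs from rod phototransduction genes and no UMI of an OFF or ON rule gene. About 36.0% and 36.4% of UMIs of OFF cells were estimated as free RNA from rod genes. In ON cells the estimates were 35.2% for wild type and 29.6% for db/db. Each estimate is the rod gene share of the cells divided by that of all kept cells. It thus assumes that free RNA has the makeup of all kept cells, which was not tested.

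Genes were named by a rule: the rule genes, type markers, the 8 highest and 8 lowest genes between libraries by the interval bound nearest 0, the 12 highest and 8 lowest between OFF and ON, the 4 highest and 4 lowest by the difference of both, and up to 4 members of a list. Rod, cone, mitochondrial, ribosomal and sex-linked genes and unnamed gene models were left out of the ranks, as were genes under 0.5 times their level over all kept cells. Some genes that the rule covers are not reported here. The cell group, gene lists and rule were chosen with earlier results of these data known. Mixed cells, the wider choice, the split by type lists and the genes ranked without mixed cells were chosen after seeing the data. The files' 32285 genes included 32235 with a position in GENCODE M21. Python 3.11.15, numpy 2.4.6, scipy 1.17.1 and pandas 2.3.3 were used, and the interval code was tested on simulated data. Alternatives changed the limits, depth, weighting, scaling and free RNA.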

Additional observations from a re-analysis of the deposited data

Results flagged for a closer look

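The db/db to wild-type ratio of 3 genes had opposite directions in OFF and ON bipolar cells, each beyond counting error, and with 1 library per genotype none of these differences was tested. For Bmpr1a the OFF minus ON difference of log2 ratios was 1.98 (0.91 to 3.12), from 13 and 36 UMIs in OFF cells and 127 and 62 in ON cells, and 2.43 without mixed cells. For Ptgds it was -2.23 (-2.97 to -1.49). The wild-type OFF cells held 201 UMIs of Ptgds, 160 of them in 1 cell, and without mixed cells the difference was -0.03 (-0.90 to 0.84). For Atp5l, a subunit of the ATP synthase, it was -0.51 (-0.83 to -0.18), from 232 and 179 UMIs in OFF cells and 841 and 642 in ON cells, and -0.52 without mixed cells.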

How the results depend on the processing

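No paired analysis was possible because each genotype had 1 library. The wild-type share of OFF cone bipolar cells was 0.948% with an OFF minimum of 6, 0.890% without Grik1, 1.52% under the wider choice, and 0.665% with no ON UMI allowed, where the db/db share was 0.675%. Thinning to 1000 UMIs gave 0.852% and 0.825%. Of OFF plus ON cells the shares were 25.5% and 31.5%, a ratio of 1.24. Against 68 genes higher and 110 lower of 5407 tested, genes with at least 100 UMIs gave 3 and 21 of 1708. Those with at least 10 UMIs gave 134 and 261 of 9234. Thinning gave 19 and 34 of 1501, and subtraction of free RNA 108 and 183 of 3672. Equal weight per cell gave 120 higher of 5340. The genes lower numbered 61 of 4747 without cells carrying amacrine UMIs and 69 of 4049 without the deepest 10% of cells. They numbered 65 of 4838 without mixed cells and 180 of 6285 under the wider choice with mixed cells. Ptgds reversed to 1.19 with no ON UMI allowed and to 0.55 without mixed cells, Atf3 to 0.019 without cells carrying amacrine UMIs, and Timp3 to 1.89 without mixed cells, where the OFF minus ON differences of Atf3 and Timp3 reversed to 0.80 and 1.72. Thinning and the 100 UMI minimum test fewer genes by construction, and the 10 UMI minimum tests more. The cause of the other changes was not tested. Of the ratios between the libraries recomputed for named genes, 1557 moved by less than their counting error, 119 moved by more and the 4 above reversed. Without mixed cells and under the wider choice are alternatives added after seeing the data. At 121 and 116 cells, a gene with few UMIs can hide a 2-fold difference.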

Other observations

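Cytosolic ribosomal protein genes differed little between the libraries. Without mixed cells 54 of 80 measured genes were higher in db/db OFF cells, with a median log2 ratio of 0.05, and under the wider choice 35 of 80, with a median of -0.01. In ON cells 67 of 80 were lower, with a median of -0.11. None passed 2-fold in either group. Rpl36a was the highest of them in OFF cells, with 57 and 113 UMIs (0.88, 0.40 to 1.36), and had a ratio of -0.03 in ON cells. In OFF cells marked for types 1 and 2 its ratio was -0.51 (-1.34 to 0.26), in those marked for 3B it was 0.98 (0.21 to 1.80), and in those marked for neither the interval was 0.32 to 1.71.

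Transcription factors of bipolar cells did not move as one group in OFF cells. Of 25 measured without mixed cells, 16 were higher and 9 lower, with a median of 0.10. The LIM-homeodomain factor Lhx4 had 182 and 263 UMIs, a ratio of 0.42 (0.14 to 0.70), and 0.44 in ON cells. Vsx1, a homeodomain factor of several cone bipolar types, had 50 and 15 UMIs under the wider choice, a ratio of -1.51 (-2.45 to -0.65), and 46 of the 50 wild-type UMIs lay in cells marked for types 1 and 2. In ON cells Vsx1 had 151 and 143 UMIs, a ratio of 0.43. The calcium-binding protein secretagogin, Scgn, had 201 and 148 UMIs, -0.55 (-0.87 to -0.24), with -0.67 in cells marked for types 1 and 2 and -0.08 in those marked for 3B. Of the other genes ranked by their OFF minus ON difference over all chosen cells, Spopl had 2.38 (0.92 to 3.96), and 2.28 (0.73 to 3.99) without mixed cells. Klf4 had 26 and 27 UMIs in OFF cells, and 2 and 0 without mixed cells. The Muller glia water channel Aqp4 had a difference of 2.06, and 1.47 (-0.36 to 3.31) without mixed cells, and the growth arrest gene Gadd45g -2.41, and -0.55 (-1.69 to 0.55) without them.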
